A study of Mus musculus with 12 samples.

Results

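The adenosine pathway of mouse CD4 T cells was described through 7 genes taken by name from a table of 54532 gene entries. These were Entpd1 and Nt5e, which encode the surface enzymes CD39 and CD73, the adenosine receptor gene Adora2a, Ada, Adk and Slc29a1, which act in the removal of adenosine, and Dpp4, the gene of CD26, which binds adenosine deaminase in humans but is not known to do so in mice. All 7 passed the filter on low counts and were among the 13393 genes tested. Gene expression was read by total RNA sequencing in 12 libraries, 3 from each of 4 sorted subsets, all freshly isolated from mixed spleen and lymph node of untreated mice of the genotype wildtype C57BL/6 Foxp3-GFP polyclonal. Naive cells were CD44low, CD44 being a marker of antigen experience. Teff (effector) cells were CD44high, FOXP3–, CD73low and FR4low. Anergic cells, which have met antigen and become unresponsive to it, were CD44high, FOXP3–, CD73high, FR4high and NRP1+. Treg (regulatory) cells were FOXP3+ and CD25+, and the mice of every subset carried the Foxp3-GFP reporter.

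ATP that leaves stressed or activated cells acts as a danger signal outside them. CD39 removes phosphates from ATP and ADP to give AMP, and CD73 turns AMP into adenosine. Adenosine binds the receptor that Adora2a encodes, which raises cyclic AMP in the T cell and dampens signalling from the T cell receptor. The signal ends when adenosine deaminase turns adenosine into inosine, held at the surface by CD26 in humans and some other mammals but not in mice, or when the transporter ENT1 carries adenosine into the cell and adenosine kinase makes AMP of it. CD39 and CD73 are well known on mouse Treg cells, and CD73 with FR4 is used to mark anergic CD4 T cells.

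The gates bear on 1 of the 7 genes directly. CD73, the product of Nt5e, was sorted high for Anergic and low for Teff cells. Every Nt5e comparison with either subset therefore involves a CD73 gate and is given without a p. The comparison of Treg with Naive cells used no CD73 gate. Levels are CPM (read counts scaled to a common library total) after TMM scaling, and differences are log2 fold changes from edgeR's quasi-likelihood test with their standard error (SE) and with p adjusted over all tested genes. A gene is said to be higher or lower where that adjusted p is under 0.05. The labels number the replicates and do not tie them to animals, so each p reflects the spread among these libraries and that spread could be technical.

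Stretches of 250 bases before an annotated start were read for the 3 genes other than Nt5e with a difference over 4-fold between subsets, Entpd1, Ada and Slc29a1, where the stretch held no annotated exon. They come from RefSeq on GRCm38.p6 and are written 5′ to 3′ on the gene's strand, with capitals marking a GGAAAA match on either strand, the core letters of an NFAT site. The Entpd1 stretch is chr19:40659520-40659769 on the plus strand, before the downstream start, the Ada stretch is chr2:163750240-163750489 on the minus strand, and the Slc29a1 stretch is chr17:45599619-45599868 on the minus strand, before the outermost start.
Entpd1: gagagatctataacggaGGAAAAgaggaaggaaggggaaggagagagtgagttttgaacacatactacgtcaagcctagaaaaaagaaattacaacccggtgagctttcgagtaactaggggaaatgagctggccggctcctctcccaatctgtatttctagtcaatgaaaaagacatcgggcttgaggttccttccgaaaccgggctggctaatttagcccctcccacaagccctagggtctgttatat
Ada: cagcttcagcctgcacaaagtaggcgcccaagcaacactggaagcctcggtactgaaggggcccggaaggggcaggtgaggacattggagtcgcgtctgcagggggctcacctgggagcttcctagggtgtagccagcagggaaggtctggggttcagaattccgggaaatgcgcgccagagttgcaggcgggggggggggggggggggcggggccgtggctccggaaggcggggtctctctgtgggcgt
Slc29a1: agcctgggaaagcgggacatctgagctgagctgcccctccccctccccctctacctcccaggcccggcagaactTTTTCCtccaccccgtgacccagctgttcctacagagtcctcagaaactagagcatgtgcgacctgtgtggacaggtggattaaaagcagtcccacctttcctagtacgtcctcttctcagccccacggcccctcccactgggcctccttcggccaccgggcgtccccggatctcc
The Ada stretch was GC-rich at 67.2%, against 47.2% for Entpd1 and 62.4% for Slc29a1. RefSeq starts were matched for 6 of the 7 genes, with 15 windows in all, of which 8 belong to Slc29a1. GGAAAA stood in 4 of the 15 windows, 3 of them of Slc29a1 and 1 of Entpd1, and in 20.4% of all 32841 windows of this length. Among the Slc29a1 windows without annotated exon, only the printed one held GGAAAA. The RUNX core TGTGGT stood in 1, also of Slc29a1, against 14% of all windows. The AP-1 letters TGANTCA, the cyclic AMP response element TGACGTCA and the forkhead letters TGTTTAC stood in 0 of the 15, against 6.75%, 1.55% and 3.17% of all windows. Both strands were searched, and a match is a description of letters only.

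Entpd1 (chromosome 19, 40612366 to 40741602, plus strand, GRCm38), the gene of CD39, was nearly silent in Naive cells and present in the other subsets. Naive libraries 1, 2 and 3 held 0.827, 0.496 and 0.304 CPM, from 6, 4 and 2 counts. The Teff libraries held 23.4, 15.9 and 14.8 CPM, the Anergic libraries 25.5, 19 and 20.9 CPM, and the Treg libraries 31.3, 34.3 and 34.4 CPM. Every Treg library stood above every Anergic and Teff library, while the Anergic and Teff libraries overlapped. In these sorted bulk samples, fewer cells of a type and less RNA per cell cannot be told apart.

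Against Naive cells, Entpd1 was 59.2-fold higher in Treg (log2 5.89, SE 0.271, adjusted p = 1.38e-14), 38.8-fold higher in Anergic (log2 5.28, SE 0.289, adjusted p = 2.23e-13) and 32.2-fold higher in Teff cells (log2 5.01, SE 0.298, adjusted p = 1.92e-12). The 12 counts of all Naive libraries together limit the precision of these folds. Treg cells held 1.84-fold more Entpd1 than Teff cells (log2 0.88, SE 0.145, adjusted p = 3.73e-05). Anergic cells held 1.53-fold less than Treg cells (log2 -0.61, SE 0.142, adjusted p = 0.00163). Between Anergic and Teff cells the difference was 0.27 on the log2 scale, with a 95% interval from -0.043 to 0.58 (adjusted p = 0.209). This last comparison rests on Teff library 1, since without it the difference was 0.51 with adjusted p = 0.013.

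Nt5e (chromosome 9, 88327197 to 88372092, plus strand), the gene of CD73, followed the gates between Anergic and Teff cells and was also high in Treg cells. The Naive libraries held 21, 17.2 and 19.9 CPM and the Treg libraries 171, 191 and 191 CPM. The Teff libraries held 59.1, 52.9 and 60.4 CPM and the Anergic libraries 278, 232 and 258 CPM. The 4 subsets did not overlap, in the order Naive, Teff, Treg and Anergic.

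Treg cells, which were not sorted on CD73, held 9.54-fold more Nt5e than Naive cells (log2 3.25, SE 0.0940, adjusted p = 2.06e-18). Teff cells, although gated CD73low, held 2.98-fold more Nt5e transcript than Naive cells (log2 1.57, SE 0.100). The Anergic level was 4.45-fold that of Teff cells (log2 2.15, SE 0.0808), 1.39-fold that of Treg cells (log2 0.47, SE 0.0739) and 13.3-fold that of Naive cells (log2 3.73, SE 0.0937). Treg cells stood 3.20-fold above Teff cells (log2 1.68, SE 0.0809).

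**Figure D1:**
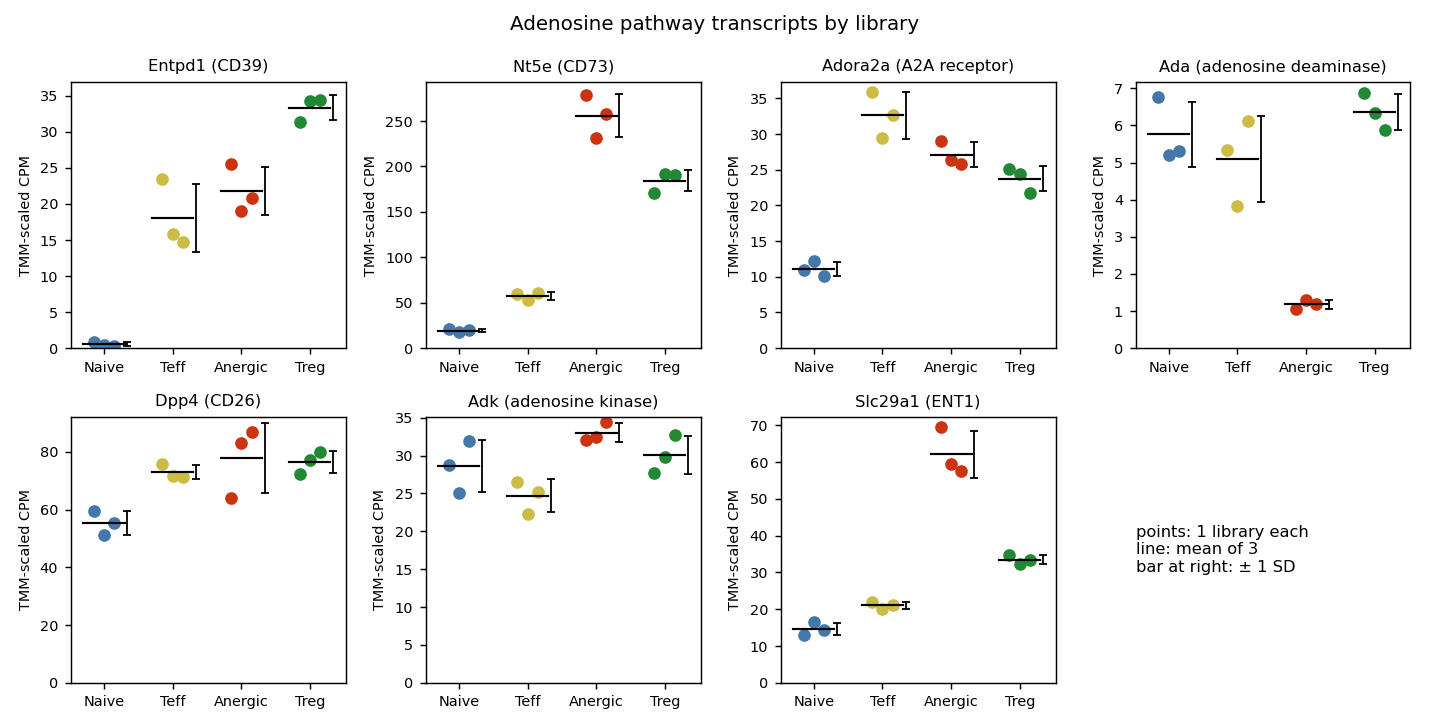
Level of each of the 7 genes in TMM-scaled CPM on axes that start at 0, by sorted subset, with 1 point per library, a line at the mean of 3 libraries and a bar of 1 SD either side. Entpd1 stands under 1 CPM in the 3 Naive libraries, Nt5e and Slc29a1 are highest in Anergic cells, and Ada is lowest there.

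Adora2a (chromosome 10, 75316877 to 75334784, plus strand), the adenosine receptor gene, was higher in all 3 other subsets than in Naive cells, with the highest mean in Teff cells. The Naive libraries held 10.9, 12.1 and 10.2 CPM and the Teff libraries 35.9, 29.4 and 32.6 CPM. The Anergic libraries held 29.1, 26.4 and 25.8 CPM and the Treg libraries 25.1, 24.5 and 21.8 CPM. No 2 subsets overlapped, although the lowest Teff library lay close to the highest Anergic one and the lowest Anergic library close to the highest Treg one.

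Relative to Naive cells, Adora2a was 2.94-fold higher in Teff (log2 1.55, SE 0.119, adjusted p = 1.76e-10), 2.44-fold higher in Anergic (log2 1.29, SE 0.121, adjusted p = 4.3e-09) and 2.14-fold higher in Treg cells (log2 1.10, SE 0.122, adjusted p = 1.07e-07). Treg cells held 1.37-fold less than Teff cells (log2 -0.46, SE 0.105, adjusted p = 0.00143). The Anergic level differed from the Teff level by -0.27 on the log2 scale (95% interval -0.48 to -0.054, adjusted p = 0.0590), and this p fell under the threshold in 5 of 21 alternatives (0.0288 to 0.25). The Anergic level differed from the Treg level by 0.19 (95% interval -0.031 to 0.41, adjusted p = 0.194). The other adenosine receptor genes were too low to test, with 5 counts of Adora1, 0 of Adora2b and 2 of Adora3 over all 12 libraries.

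Ada (chromosome 2, 163726584 to 163750239, minus strand), the gene of adenosine deaminase, was lower in Anergic cells than in each other subset. The Anergic libraries held 1.06, 1.29 and 1.2 CPM, from 9, 11 and 9 counts. The Naive libraries held 6.76, 5.20 and 5.31 CPM, the Teff libraries 5.33, 3.84 and 6.12 CPM and the Treg libraries 6.87, 6.33 and 5.88 CPM. The 3 Anergic libraries lay below all 9 others, which overlapped among the subsets.

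The Anergic level of Ada was 5.33-fold below Treg (log2 -2.42, SE 0.281, adjusted p = 2.68e-07), 4.82-fold below Naive (log2 -2.27, SE 0.289, adjusted p = 5.56e-07) and 4.27-fold below Teff cells (log2 -2.09, SE 0.290, adjusted p = 4.31e-06). These comparisons share the Anergic libraries and are not independent of each other. Among the remaining subsets no Ada difference passed the test. It was -0.17 for Teff against Naive (95% interval -0.65 to 0.30, adjusted p = 0.606), 0.15 for Treg against Naive (-0.32 to 0.61, adjusted p = 0.671) and 0.32 for Treg against Teff (-0.14 to 0.78, adjusted p = 0.317).

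Dpp4 (chromosome 2, 62330073 to 62412231, minus strand) encodes CD26, a surface peptidase that anchors adenosine deaminase in humans but not in mice. Its Naive libraries held 59.4, 51.2 and 55.2 CPM, and those of Teff cells 75.8, 71.8 and 71.4 CPM. The Anergic libraries held 64.0, 82.9 and 86.8 CPM and the Treg libraries 72.5, 77.0 and 79.9 CPM. All Naive libraries lay below all others, and the Anergic, Teff and Treg libraries overlapped, with Anergic library 1 the lowest of them.

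Dpp4 was higher than in Naive cells by 1.41-fold in Anergic (log2 0.49, SE 0.0924, adjusted p = 0.000103), 1.38-fold in Treg (log2 0.47, SE 0.0921, adjusted p = 0.000276) and 1.32-fold in Teff cells (log2 0.40, SE 0.0928, adjusted p = 0.00133). The 95% interval of the Anergic difference ran from -0.093 to 0.28 against Teff and from -0.16 to 0.21 against Treg cells (adjusted p = 0.508 and 0.865). That of Treg against Teff ran from -0.12 to 0.25 (adjusted p = 0.643). An opposite-strand gene, Gm13561, shares 3.67% of the exon length of Dpp4, and reads there could belong to either.

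Slc29a1 (chromosome 17, 45585200 to 45599606, minus strand), the gene of the nucleoside transporter ENT1, was highest in Anergic cells. The Anergic libraries held 69.4, 59.4 and 57.5 CPM, the Treg libraries 34.7, 32.3 and 33.4 CPM, the Teff libraries 21.9, 19.95 and 21.3 CPM and the Naive libraries 13.1, 16.5 and 14.4 CPM. No 2 subsets overlapped, and their order was Naive, Teff, Treg and Anergic.

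All 6 differences of Slc29a1 passed the test. Anergic cells held 4.22-fold more than Naive (log2 2.08, SE 0.104, adjusted p = 3.88e-14), 2.95-fold more than Teff (log2 1.56, SE 0.0968, adjusted p = 6.7e-12) and 1.86-fold more than Treg cells (log2 0.89, SE 0.0910, adjusted p = 3.26e-08). Treg cells held 2.27-fold more than Naive cells (log2 1.19, SE 0.109, adjusted p = 4.17e-09) and 1.59-fold more than Teff cells (log2 0.67, SE 0.101, adjusted p = 1.23e-05). Teff cells held 1.43-fold more than Naive cells (log2 0.52, SE 0.116, adjusted p = 0.00101). Gm17080 on the opposite strand shares 6.86% of the Slc29a1 exon length.

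Adk (chromosome 14, 21052574 to 21448569, plus strand), the gene of adenosine kinase, showed no log2 difference beyond 0.42 in either direction. The Anergic libraries held 32.1, 32.5 and 34.5 CPM and the Teff libraries 26.6, 22.3 and 25.2 CPM. The Naive libraries held 28.8, 25.0 and 31.9 CPM and the Treg libraries 27.7, 29.8 and 32.7 CPM. The Anergic libraries lay above every Teff and Naive library and overlapped those of Treg cells.

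Anergic cells held 1.34-fold more Adk than Teff cells (log2 0.42, SE 0.105, adjusted p = 0.00389). Treg cells held 1.21-fold more than Teff cells (log2 0.28, SE 0.105, adjusted p = 0.0486), a difference that passed in only 7 of 21 alternatives (adjusted p 0.0279 to 0.22). The Anergic difference from Naive cells was 0.21 (95% interval -0.0025 to 0.43, adjusted p = 0.0998), and without Naive library 3 it was 0.29 with adjusted p = 0.0438. The differences of Anergic from Treg, Teff from Naive and Treg from Naive were 0.14, -0.20 and 0.08 on the log2 scale (adjusted p = 0.337, 0.153 and 0.636).

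**Figure D2:**
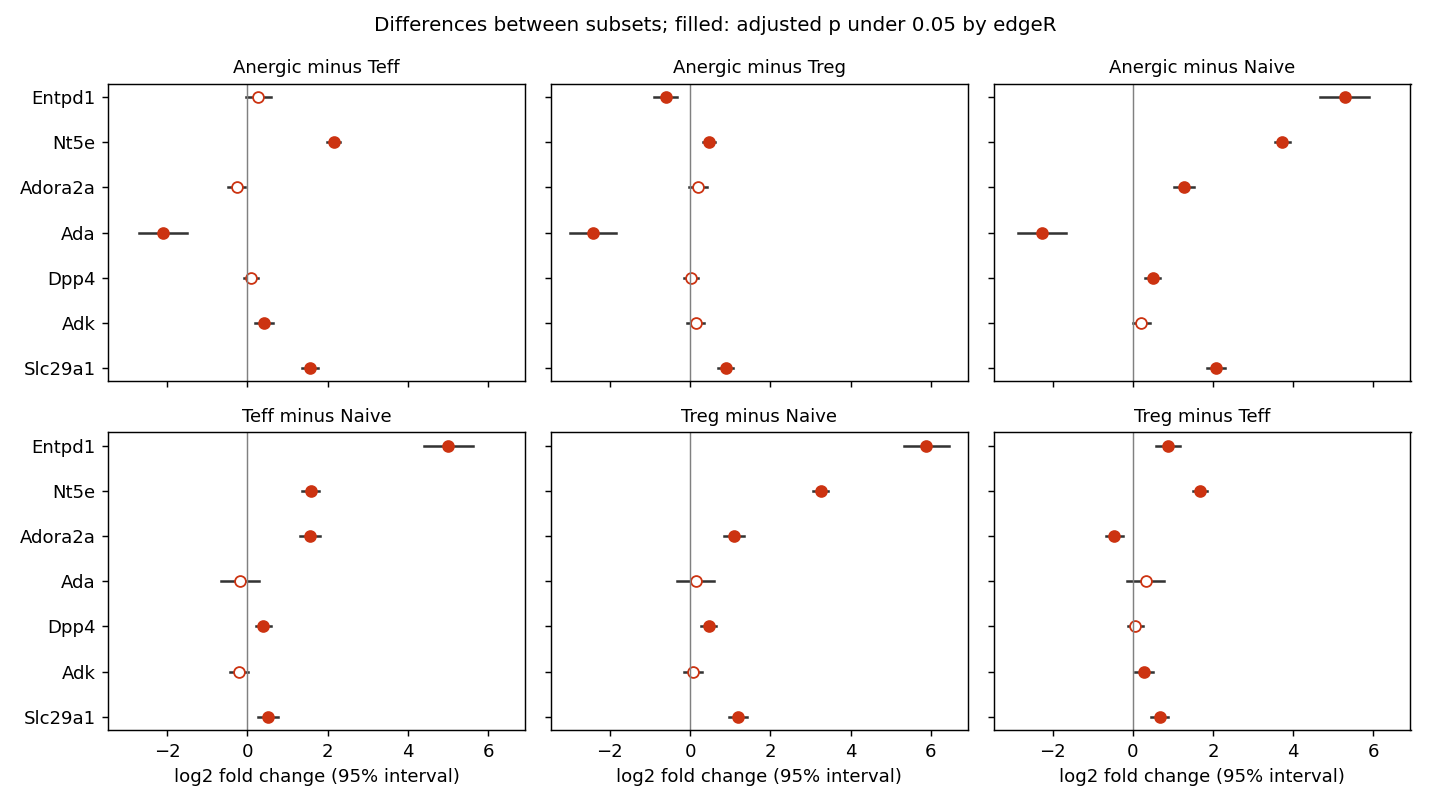
Log2 fold change of each gene in the 6 comparisons, with 95% intervals and filled points for adjusted p under 0.05. A CD73 gate bears on Nt5e in all but Treg against Naive cells. The Nt5e points of the gated comparisons are filled too but are not read as tests. Ada lies at -2.09 to -2.42 in the 3 comparisons of Anergic cells, and Entpd1 lies above 5 in the 3 comparisons with Naive cells.

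Leaving out the gated Nt5e, 3 of the other 6 genes differed between Anergic and Teff cells (2 higher, 1 lower), where 26.6% of all tested genes did (13.9% higher, 12.7% lower). Between Anergic and Treg cells 3 differed (1 higher, 2 lower), against 31% of all genes (15.6% higher, 15.3% lower). Between Anergic and Naive cells 5 differed (4 higher, 1 lower), against 46.2% (25% higher, 21.3% lower). Teff and Naive cells differed in 4, all higher in Teff, against 34.9% (19.2% higher, 15.7% lower). Treg and Naive cells differed in 4, all higher in Treg, against 32.8% (19% higher, 13.9% lower). Treg and Teff cells differed in 4 (3 higher, 1 lower), against 29.1% (15% higher, 14.1% lower). The median log2 fold change of the 6 genes was 0.181, 0.082, 0.89, 0.46, 0.782 and 0.3 in that order, and that of all tested genes lay between 0 and 0.008. With Nt5e, which was higher in the first-named subset each time, the counts were 4, 4, 6, 5, 5 and 5 of 7. Among these only Treg against Naive adds a call between subsets both sorted without a CD73 gate. The rise of Nt5e in Teff over Naive cells ran against the CD73low gate of Teff cells. The genes were chosen with earlier results of these data known, so the shares above the background are a description.

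Levels of different genes were set side by side as CPM per kilobase of annotated exon. In Anergic cells Nt5e led at 29.8, followed by Slc29a1 at 15.5, Dpp4 at 12.3 and Adora2a at 8.85, with Entpd1 at 3.91, Adk at 3.87 and Ada last at 0.591. In Treg cells Nt5e also led, at 21.4, before Dpp4 at 12.1. In Teff cells Dpp4 led at 11.6 with Adora2a at 10.7 and Nt5e at 6.68, and in Naive cells Dpp4 led at 8.75 while Entpd1 was last at 0.0972. With the longest transcript as the length, 14 of the 28 places moved, and Nt5e led in Teff cells. Nt5e exons span 8.602 kilobases in all and its longest transcript 3.995.

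Ratios within a library do not depend on its scaling. Per kilobase, the ratio of Adk to Ada was 6.6 ± 0.620 in Anergic cells (SD, n = 3), with all libraries between 5.91 and 7.12, and its mean was 1.12 to 1.18 in the other subsets. The ratio of Nt5e to Ada was 51.0 ± 9.77 in Anergic cells, against 0.788 ± 0.0761 in Naive, 2.69 ± 0.464 in Teff and 6.79 ± 0.897 in Treg cells. The ratio of Nt5e to Entpd1 was 7.66 ± 0.510 in Anergic, 3.58 ± 0.0342 in Treg and 2.15 ± 0.507 in Teff cells. In Naive cells that ratio was 27.2 ± 13.6, on the 12 Entpd1 counts. The Nt5e ratios carry the CD73 gate with them. The size of each ratio also depends on the gene length taken, and the Anergic ratios to Ada rest on 29 counts of Ada.

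**Figure D3:**
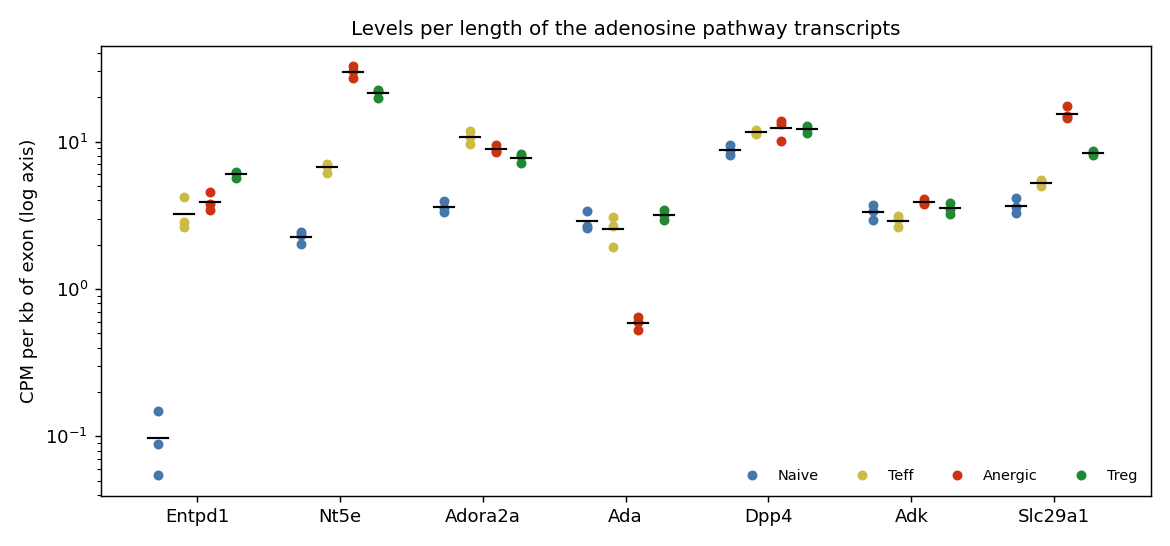
Level per kilobase of annotated exon, in CPM on a log axis, for the 7 genes by subset, with 1 point per library and a line at the mean of 3. Nt5e stands at a mean of 29.8 in Anergic cells, where Ada stands at 0.591.

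The genes whose levels ran most like each of the 7 over the 12 libraries were taken from 7793 genes (7794 for Ada) by Pearson correlation of log2 CPM, as a description, since libraries of a subset share its differences. Entpd1 ran with H2-Q6 (0.995), Ptprj (0.993) and Ahr (0.991), where H2-Q6 has near-identical relatives that can share reads. Ptprj rose from 1.22 CPM in Naive to 30.7 CPM in Treg cells. Nt5e ran with Nrn1 (0.993), Tiam1 (0.991) and Ptprs (0.991), and Tiam1 stood at 10.5, 66.9, 342 and 207 CPM in Naive, Teff, Anergic and Treg cells. The CD73 gates enter the Nt5e correlations. Slc29a1 ran with Fam43a (0.993), Hif1a (0.993) and Itgav (0.988), and Adora2a with Gsap (0.989), Arhgap21 (0.989) and Kcnq5 (0.985). Ada ran with Plcxd2 (0.989), Rnf130 (0.969) and Edem1 (0.963). The correlations were lower for Dpp4, with Vps45 (0.942), Sar1b (0.913) and Uhrf2 (0.912), and for Adk, with Pebp1 (0.881), D3Ertd254e (0.873) and Zbtb33 (0.869). With Spearman's rank correlation 2 of the 3 names were kept for Dpp4 and 0 for each other gene.

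A wider list of 75 genes of purine signalling and metabolism, of which 74 were in the table and 47 tested, put these 7 in context. Of the 47, 13 differed between Anergic and Teff cells (6 higher, 7 lower), which is 27.7% and near the 26.6% of all tested genes. Between Anergic and Treg cells 23 differed (14 higher, 9 lower), 48.9% against 31%. The balance of these 2 comparisons depends on the scaling, since with total counts it was 4 higher and 8 lower against Teff cells and turned to 7 higher and 11 lower against Treg cells. Between Anergic and Naive cells 27 differed (19 higher, 8 lower), 57.4% against 46.2%. Teff and Naive cells differed in 21 (15 higher, 6 lower), 44.7% against 34.9%, and Treg and Naive cells in 20 (13 higher, 7 lower), 42.6% against 32.8%. Treg and Teff cells differed in 18 (7 higher, 11 lower), 38.3% against 29.1%. The median log2 fold change of the list lay between 0.022 and 0.172.

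Among the receptors for ATP and nucleotides, P2rx7, the ATP-gated channel whose opening can kill T cells, was higher in the 3 other subsets than in Naive cells. It stood at 10.6 CPM in Naive cells and at 146 in Teff, 144 in Anergic and 122 in Treg cells, 13.6-fold, 13.4-fold and 11.4-fold higher (adjusted p = 5.26e-18, 3.7e-18 and 1.77e-17). Art2b, whose ADP-ribosyl transfer can open that channel, was 2.58-fold higher in Teff and 2.33-fold higher in Anergic than in Naive cells (adjusted p = 5.14e-10 and 2.71e-09). Treg cells also held more Art2b, 64.5 CPM against 31.2 in Naive cells, at log2 0.96 to 1.127 over 21 alternatives. P2ry10, which carries a P2Y name but is known as a receptor for the lipid lysophosphatidylserine, was highest in Treg cells at 119 CPM, 2.63-fold above Naive (adjusted p = 3.73e-12), 1.97-fold above Teff (1.4e-09) and 2.10-fold above Anergic cells (3.4e-10).

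P2ry1, an ADP receptor gene, was detected mainly in Teff and Anergic cells, with 124 and 53 counts against 1 in Naive and 4 in Treg cells. Its ratio to Naive cells was 111 in Teff (95% counting interval 19.5 to 4409) and 47.3 in Anergic cells (8.14 to 1905), both resting on the single count of Naive library 3. It was 13-fold higher in Anergic than in Treg cells (adjusted p = 2.59e-05) and 30.4-fold lower in Treg than in Teff cells (adjusted p = 7.07e-08). P2ry1 shares 23.12% of its exon length with Gm37035 on the opposite strand, so its counts are uncertain.

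Of the surface enzymes that handle nucleotides, Cd38, which consumes NAD, had a level of 16 CPM in Anergic, 9.68 in Teff and 8.75 in Treg cells and rested on 6 counts in Naive cells. Against Naive cells it was 55.5-fold higher in Anergic (adjusted p = 6.54e-13), 33.6-fold in Teff (5.08e-11) and 30.4-fold in Treg cells (1.05e-10). Without Naive library 2 these folds were 183, 111 and 100.2, so their size rests on that library, while the calls held. Acpp, an acid phosphatase able to make adenosine from AMP, was lowest in Treg cells at 4.77 CPM, 3.42-fold below Teff cells (adjusted p = 1.45e-08), while Anergic cells held 2.70-fold more than Treg cells (7.32e-07).

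The deaminases of AMP, which send it to IMP and away from adenosine, included Ampd1. It stood at 8.75 CPM in Naive, 2.59 in Treg, 0.936 in Teff and 0.245 in Anergic cells, the last from 6 counts. The Anergic level was 33.7-fold below Naive (adjusted p = 1.13e-10) and 10.0-fold below Treg cells (2.78e-06), and the Teff level 9.21-fold below Naive cells (1.03e-08). Ampd3 was 1.98-fold lower in Teff than in Naive cells (adjusted p = 5.81e-06). It was also lower in Anergic than in Naive cells, at log2 -0.949 to -0.859 over 21 alternatives. No Ampd3 difference was called between Anergic and Teff cells or between Treg and Naive cells. The 4 deaminase genes of the list tested were Ampd1, Ampd2, Ampd3 and Adal, the last not an Ampd gene. Of these 4, 3 (Ampd1, Ampd3 and Adal) were lower in Anergic than in Naive cells, where 21.3% of all tested genes were lower. In Teff cells 3 were lower than in Naive cells, against 15.7% of all genes, and in Treg cells 1, against 13.9%. The Adal call against Naive cells held in 20 of 21 alternatives for Anergic and 19 of 21 for Teff cells. Both were lost without Naive replicate 2.

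Adenylate cyclases, which make cyclic AMP downstream of the Adora2a receptor, moved in different directions. Adcy6 fell from 52.0 CPM in Naive to 24.1 in Treg, 9.43 in Teff and 4.64 in Anergic cells, 2.17-fold, 5.51-fold and 11.2-fold lower (adjusted p = 3.44e-08, 2.81e-13 and 1.92e-15). It was 2.04-fold lower in Anergic than in Teff cells (adjusted p = 0.000103), 5.19-fold lower in Anergic than in Treg cells (1.8e-11) and 2.54-fold higher in Treg than in Teff cells (3.83e-08). Adcy9 was 2.48-fold higher in Anergic than in Teff cells (adjusted p = 0.000256). It was also higher in Treg than in Teff cells, at log2 0.866 to 1.133 over 21 alternatives. No Adcy9 difference was called between Anergic and Treg cells. Adcy7, at 248 CPM in Anergic cells, was 1.94-fold above its Treg level (adjusted p = 2.22e-10), and in Treg cells it was 1.71-fold below Naive (7.44e-09) and 2.04-fold below Teff cells (5.13e-11). Of the 12 genes of receptor coupling tested, 3 differed between Anergic and Teff cells, near the 26.6% of all tested genes, and 7 between Anergic and Naive cells, against 46.2%. The 3 were Adcy6, Adcy9 and Gnas, the gene of the stimulatory G protein, whose call (adjusted p = 0.0492) held in only 6 of 21 alternatives.

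Among the genes listed under purine salvage and the methylation cycle was Dck, which phosphorylates deoxynucleosides including deoxyadenosine. Dck was 1.57-fold higher in Anergic (37.8 CPM) than in Teff cells (24 CPM, adjusted p = 1.01e-05), and was 1.86-fold above its Treg level (9.28e-08). Ahcyl2 was highest in Treg cells at 180 CPM, 2.65-fold above Naive (adjusted p = 1.23e-13) and 2.08-fold above Teff cells (1.75e-11). In Anergic cells Ahcyl2 was 1.39-fold below Teff (2.68e-05) and 2.88-fold below Treg cells (4.75e-14). Ahcyl1 was 1.25-fold higher in Anergic than in Teff cells (adjusted p = 0.00304), a call lost when libraries were scaled by total counts. No difference of Ahcy itself was called, although Treg against Naive cells passed in 7 of 21 alternatives and Treg against Teff cells in 3. Entpd5, a diphosphatase of the endoplasmic reticulum and not of the surface, was lower in Anergic cells, 1.59-fold below Teff (adjusted p = 2.23e-06) and 2.07-fold below Naive cells (5.25e-10), and 1.90-fold lower in Treg than in Naive cells (5.42e-09).

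**Figure D4:**
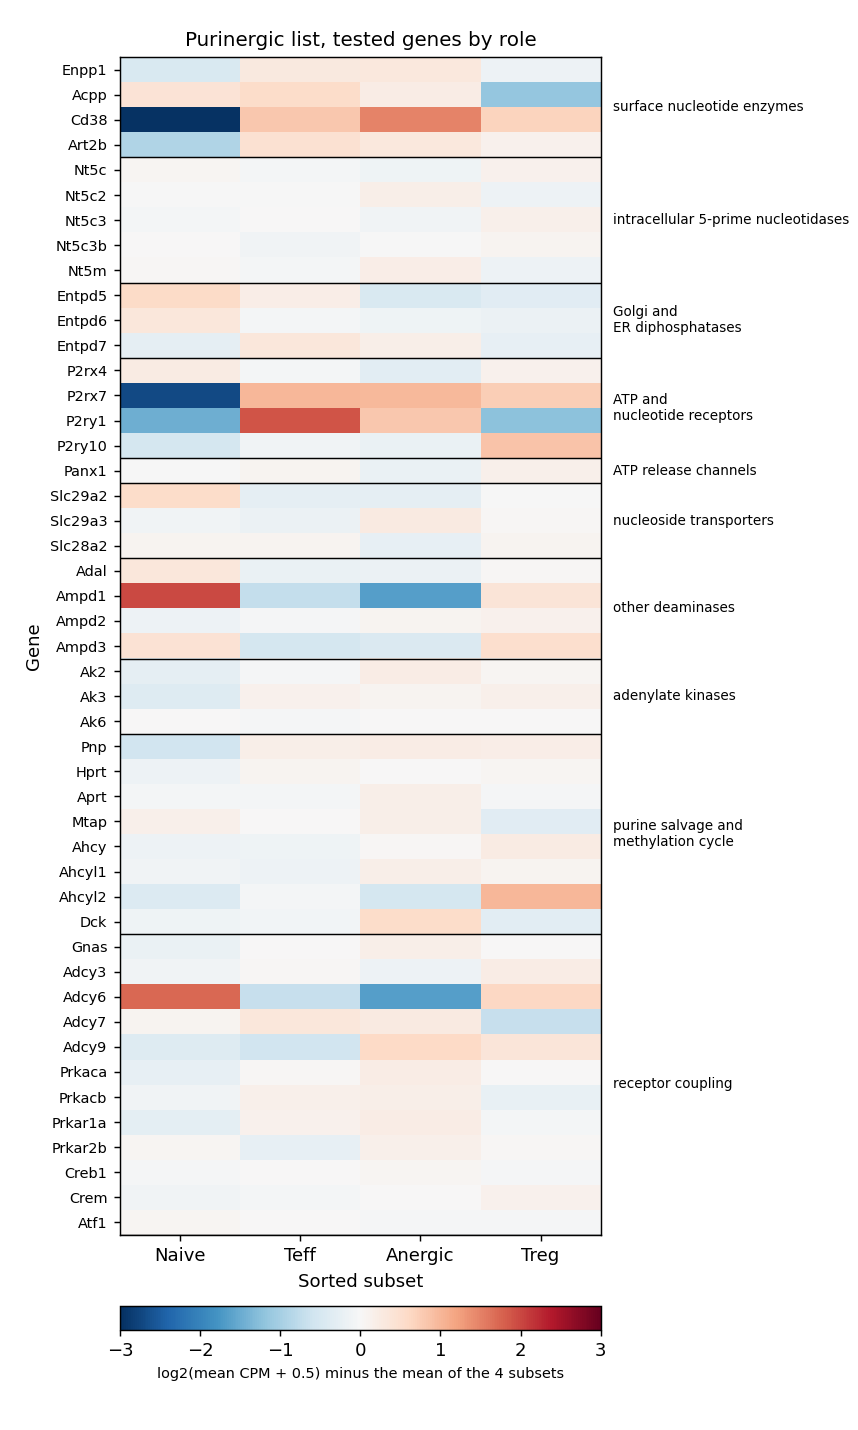
Heat map of the 47 tested genes of the purine list, grouped by role, in the 4 subsets, with colour giving log2(mean CPM + 0.5) minus the mean over the subsets and limited to 3.0 either way. P2rx7 and Cd38 are low in Naive cells, and Adcy6 and Ampd1 are low in Anergic cells.

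The libraries held 6909035 to 9527897 counts. From 29.4% to 40.4% of them fell on 6 abundant entries, among them both mitochondrial ribosomal RNAs and Malat1, with the highest share in Anergic library 3. The 7 CD4 T cell marker genes summed to 2244 to 3717 CPM on average in the 4 subsets with none under 1 CPM. Foxp3 stood at 531 to 562 CPM in Treg and 15 to 20.3 in Anergic libraries, so that the Anergic mean was 3.35% of the Treg mean, and at no more than 1.61 in the others. The other Treg markers were closer, with Ikzf2 at 376 CPM in Anergic and 532 in Treg cells and Ctla4 at 15.6 and 27.1, but Il2ra at 15.3 and 709.9. All 4 Treg markers together summed to 365 to 515 CPM in the Anergic libraries, 1748 to 1890 in Treg, 124 to 144 in Teff and 7.44 to 11.4 in Naive libraries. The 5 markers of follicular helper T cells summed to 402 to 476 CPM in the Anergic libraries and to means of 44 to 140 elsewhere. The 6 of NK and innate-like cells summed to 181 to 244 CPM in the Teff libraries and to means of 5.05 to 44.6 elsewhere, with Klrb1c at 0 in Naive and Ncr1 at 0 in Anergic and Treg cells. The Treg sum was highest in Treg cells, where Entpd1 was also highest. The follicular helper sum was highest in Anergic cells, where Slc29a1 and Nt5e were highest and Ada lowest. The NK sum was highest in Teff cells, as was the mean of Adora2a. The part of such cells in these results was not tested. B cell markers summed to 190 to 453 CPM, mostly from Ighm at 174 to 443 CPM, and of them Cd22 stood at 27.9 CPM in Anergic, 12.6 in Teff, 2.87 in Treg and 0.101 in Naive cells. The 11 myeloid and dendritic cell markers summed to 4.75 to 12 CPM.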

How the data were processed

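Libraries were prepared from total RNA of sorted CD4 T cells with a stranded Takara SMARTer kit for low input, per the labels' protocols. The deposited values are unnormalised read counts per gene, which the authors made with Trimmomatic, HISAT2, SAMtools and featureCounts, per the series design text, on GRCm38, per the submitters' processing notes. Which annotation and which strand setting were used is not given in the sources used here. Positions and lengths come from a GENCODE annotation of GRCm38. Counts of 12 libraries, with 6909035 to 9527897 each, went into edgeR 4.0.16 under R 4.3.3 (filterByExpr, TMM, quasi-likelihood F test, 1 model of subset means, Benjamini-Hochberg over 13393 genes, two-sided, threshold 0.05) and the fit was tested on simulated data. The SE is the log2 fold change over the square root of F. Common biological variation was 0.0764 as a coefficient. The members and lists were chosen with earlier results of these data known. From the purine list, up to 3 higher and 3 lower genes of smallest adjusted p in each comparison were named, and called genes over 4-fold. Outside that rule, Adora1, Adora2b and Adora3 were named for their low counts and Gnas for its unstable call. Ampd2 and Adal were named to list the deaminases counted, and Art2b, Ampd3 and Adcy9 were followed into further comparisons. Ahcy was named beside Ahcyl1 and Ahcyl2. Levels of Ptprj and Tiam1 were chosen after their values were seen. For each of the 7 genes the 3 most correlated genes with at least 10 CPM in a subset were named. Counting intervals are exact and cover counting error only. Alternatives were DESeq2 1.42.0, limma 3.58.1 voom, DESeq2 size factors, total-count scaling, no filter, 5 CPM in 3 libraries, a block for the replicate number, fits of 2 subsets alone, removal of the abundant entries, and each library left out. Chi-square over degrees of freedom was 2.2 to 21.48 between libraries of 1 subset, above the sampling noise, so each was kept as a library of its own. The Anergic pairs were highest, at 9.65, 14.2 and 21.48, and no other pair exceeded 7.33.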

Additional observations from a re-analysis of the deposited data

How the results depend on the processing

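Over 21 alternatives, 855 of 882 values of the 7 genes kept their direction and side of the threshold. Those values include Nt5e, on which a CD73 gate bears in all comparisons but Treg against Naive cells. The counts of genes called (Nt5e included) stayed within 1.5 times. They ranged from 4 to 5 (Anergic against Teff), 4 to 4 (Anergic against Treg), 6 to 7 (Anergic against Naive), 5 to 5 (Teff and Treg against Naive) and 4 to 5 (Treg against Teff), and for the purine list from 11 to 15, 17 to 24, 24 to 30, 20 to 23, 16 to 24 and 15 to 20. Dpp4, never called between Anergic and Teff or Treg cells, reversed under total-count scaling to -0.0144 and -0.1103, and against Treg cells when 1 library was left out ranged from -0.0555 to 0.1508, with -0.0065 without Treg replicate 1 and -0.0232 without Anergic replicate 2. Adk in Treg against Naive cells ranged from -0.0158 to 0.1551 with 1 library left out. The cause was not tested. Total-count scaling moved the median of all genes by -0.1 (Anergic against Teff) and -0.13 (Anergic against Treg), and the share of higher calls from 52.3% to 34.9% and from 50.5% to 30.4%, and for Treg against Naive cells from 57.7% to 72.2%.

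Deviations of same-numbered libraries correlated only weakly, by -0.048 to 0.184, over 0.1 in 4 of 18 pairs. Even so, 10 of 12 libraries correlated best with their own number. A block for that number raised the calls over all genes in every comparison. Between Anergic and Teff cells they went from 1864 higher and 1702 lower to 2042 and 1945. The main fit holds no term for the replicate number, and what same-numbered libraries share was not tested. With the replicate number as a block, 5 of the 7 genes were called between Anergic and Teff cells, since Adora2a passed (adjusted p = 0.039), 4, 6, 5, 5 and 5 in the other comparisons, and 14, 24, 28, 22, 22 and 20 of the purine list. Depth limits Ada in Anergic and Entpd1 in Naive cells, at 29 and 12 counts in all.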
